A study of Mus musculus with 7 samples.

Results

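The comparison described here set the transcriptome of 3T3-L1 cells after 24 h in fresh differentiation medium against that after 4 h in the same medium. 3T3-L1 is a mouse fibroblast line that can be turned into fat cells in culture. The medium, MDI, holds IBMX (a phosphodiesterase inhibitor that raises cAMP), Dexa and insulin. The series sought an important factor in 3T3-L1 differentiation, and the change between these times in fresh medium was not tabulated by the authors. The members are the protein-coding genes at an FPKM (mapped fragments scaled by transcript length and library size) of 1 or more in either library. They number 10488 of 20164 protein-coding genes and of 23996 genes listed in all. Just inside that limit stood Psd3, at 0.687 at 4 h and 1.00 at 24 h, and just outside it Ccdc15, at 0.207 and 0.9997.

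Growth-arrested 3T3-L1 preadipocytes that receive MDI pass through a sequence of stages known from many studies. Early transcription factors, among them C/EBPβ and C/EBPδ, appear within hours. The arrested cells then re-enter the cell cycle for a short phase called mitotic clonal expansion. PPARγ and C/EBPα, which switch on the genes of the fat cell, follow, and lipid accumulates over the days after that.

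Of the 7 libraries of the series, each a separate condition of total RNA, 5 are used. The 0h control came from cells that were confluent and not yet induced. The 4h MDI and 24h MDI libraries were taken 4 h and 24 h after MDI was given. The 4h CM and 24h CM libraries were taken at the same times after conditioned medium, that is, MDI medium in which other 3T3-L1 cells had differentiated for 48 h. The labels record no other agent, no genotype and no passage number. Since each condition is 1 library from 1 line, no difference below has a replicate error or a test, and a gene is called higher or lower only by size. That size is a difference of log2(FPKM + 1) of at least 1, or 2-fold. Hours elapsed, time in medium and exposure to the inducers cannot be told apart, and fewer cells of a type cannot be told from less RNA per cell.

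The FPKM of all listed genes summed to 714427 at 4 h and 691725 at 24 h, and 10530 and 10731 genes reached an FPKM of 1. The 100 most abundant genes held 40.3% and 46.6% of the sum. FPKM files give no read totals, so the depth is unknown. The median ratio of 24 h to 4 h was −0.02 on the log2 scale, and setting it to 1 raised every ratio by that size. TPM raised every ratio by 0.05 on the same scale.

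The labels call the cells adipocytes, and the levels bear this out only in part. Of 18 listed preadipocyte and stromal genes, 13 were among the members, at unlike levels. Dlk1, a membrane protein of preadipocytes, stood at 985 at 4 h and 551 at 24 h, and the stromal surface protein Thy1 at 294 and 108. Ly6a read 32.3 and 371, and the receptor gene Pdgfrb 18.3 and 4.93. Of 24 listed genes of the mature fat cell, 11 were members. The fatty acid carrier Fabp4 was present at 33.6 and 30.5, and the lipase genes Lpl and Lipe at 104 and 45.7 and at 3.62 and 21.6. Retn and Cidec were under 1 at 4 h and read 2.43 and 1.09 at 24 h. The hormone gene Adipoq, the lipid droplet gene Plin1 and the glucose transporter gene Slc2a4 stayed under 1 in both libraries, and Lep and Cfd were listed at 0 in both. Most listed markers of other cell types were near the floor, with Runx2 and Cd14 above it at 4 h. Krt13, a keratin gene outside the epithelial list, read 50.9 and 63.4. None of 5 endothelial markers was measured at 1 or more, and the leukocyte genes Ptprc and Itgam were listed at 0. The summed FPKM of the muscle markers was 4.22 and 1.01, and that of the epithelial markers 0.111 and 3.32, the latter from the keratin gene Krt19. Of the bone and cartilage markers, Runx2 read 7.51 and 3.25 and Alpl 2.62 and 1.56, and of the macrophage markers Cd14 read 6.49 and 1.86 and Cd68 2.27 and 2.13. The part of such markers in the differences below was not tested.

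Between 4 h and 24 h, cell division genes were higher and genes of the cytoskeleton, matrix and early signalling were lower. Of the 10488 genes, 1249 were at least 2-fold higher at 24 h (11.9%) and 1432 at least 2-fold lower (13.7%), with a median difference of −0.02. At least 4-fold, the counts were 244 and 333, and at least 8-fold, 64 and 83. With a pseudocount of 5, which shrinks the differences of genes at low levels, the 2-fold counts were 592 and 875. The genes that were lower had a median FPKM of 12.03 at 0 h, 29.6 at 4 h and 8.64 at 24 h. The higher genes had medians of 8.96, 3.56 and 13.6. By these medians the lower genes had their peak at 4 h, and the higher genes their minimum. Both sets were chosen by a difference that uses the 4 h library, and this choice by itself favours such a pattern. The same holds for genes named below for the size of that difference. Whether the pattern goes beyond the choice was not tested. Here and below, a peak or minimum at 4 h means only the highest or lowest of 0 h, 4 h and 24 h. Times between them were not sampled.

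**Figure D1:**
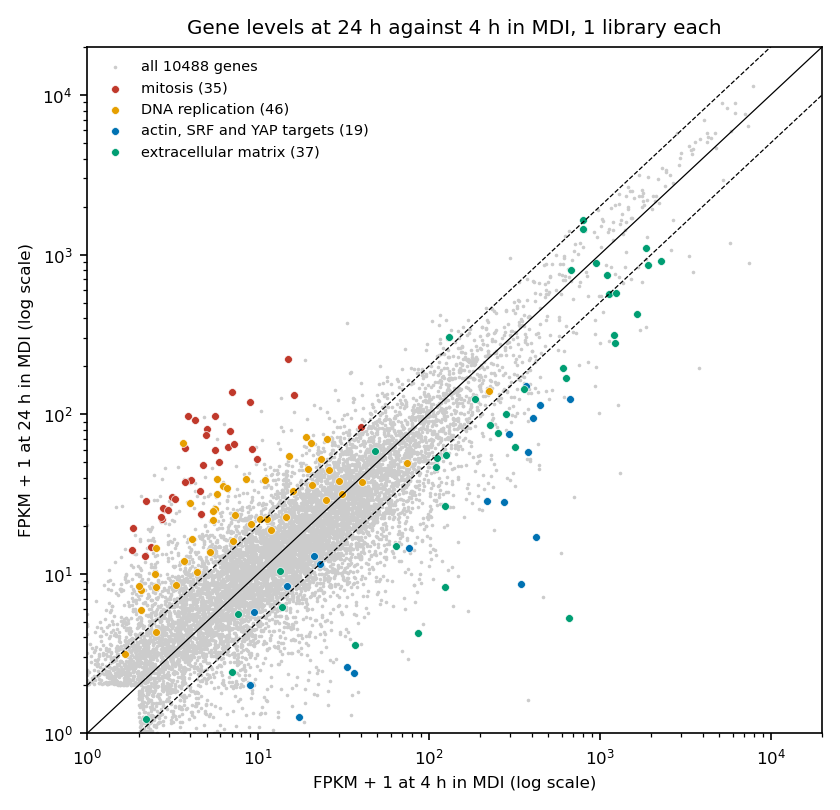
FPKM + 1 of each gene at 24 h (vertical, log scale) against 4 h (horizontal, log scale) in MDI, 1 library each. Grey points are the 10488 genes, coloured points 4 gene lists, the solid line equality and the dashed lines a 2-fold difference. All 35 mitosis genes lie above the upper dashed line, and 16 of 19 actin, SRF and YAP targets lie below the lower one.

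The largest increases belonged to cell division genes. Ccnb2 (cyclin B2, chr9:70407689-70421554), a partner of the mitotic kinase Cdk1, read 6.12 at 0 h, 2.91 at 4 h and 96.9 at 24 h. That 24 h level was 33.3 times the 4 h level, and its difference was the largest increase on the log2(FPKM + 1) scale among genes at an FPKM of 5 or more, at 4.65 on the log2 scale. Pttg1 (securin, which holds sister chromatids together until anaphase) read 9.62, 3.28 and 90.4. Birc5 (survivin, chr11:117849237-117855743), a subunit of the chromosomal passenger complex, read 9.41, 6.01 and 137. In each of the 3, 4 h was the lowest time and 24 h stood far above both others. Among the 15 genes with the largest increases only 1100001G20Rik, Wfdc12 and Ren1 are not known for a part in cell division or nucleotide supply. 1100001G20Rik was listed at 0 at both 0 h and 4 h and stood at 19.3 at 24 h. Wfdc12, a gene of the whey acidic protein family, went from 0.592 to 25.7. Ren1 (renin) went from 1.86 to 45.1. Its locus is shared with 1 other listed gene and mice can carry a near-identical copy, so that value is uncertain.

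At the other end, the genes with the largest decreases had mostly peaked at 4 h. Fgl2, a secreted fibrinogen-like protein, read 0.392 at 0 h, 379 at 4 h and 0.617 at 24 h. Its difference of −7.88 was the largest in size of all, although its locus is shared with 1 other gene. Thbs1 (thrombospondin 1, chr2:118111922-118127133), a matrix glycoprotein, read 71.4, 659.4 and 4.29, a difference of −6.96. Unlike Fgl2, it ended far below the uninduced level. Thbd (thrombomodulin, a receptor for thrombin) went from 597 to 12.5. Others of the lowest 15 were Il1rl1, Acta2, Pdpn, Fgf2, Ogn, Cyr61, Tmem119, 1810011O10Rik, Gprc5a, Tfpi2 and Dlk2, with differences from −6.03 to −4.36. Ogn (osteoglycin) was the only gene of the 15 whose 0 h level, 118, exceeded its 4 h level, 74.7. Its locus is shared with 4 other genes.

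Mitosis genes formed the most uniform group. All 35 measured genes of the mitosis list were at least 2-fold higher at 24 h, with a median difference of 3.22 against −0.02 over all genes. Their median FPKM was 5.57 at 0 h, 3.60 at 4 h and 49.5 at 24 h. The smallest difference, 1.06, was that of Racgap1, a regulator of cytokinesis that had already reached 38.9 at 4 h from 13.6 at 0 h. Cyclins A2 and B1, the kinases Cdk1, Plk1, Aurka and Aurkb, the spindle checkpoint genes Bub1, Bub1b and Mad2l1, and the anaphase regulators Cdc20 and Ube2c all lay in this group. Ube2c, the ubiquitin-conjugating enzyme of the anaphase-promoting complex, had the highest 24 h level, 221, after 14.04 at 4 h. Cdk1 went from 8.17 to 59.1 and the proliferation marker Mki67 from 2.76 to 36.8. Kif2c, a kinesin of the list, was not counted because the deposited table does not call it protein-coding. It read 2.06 and 35.8.

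Promoters of the 3 mitosis genes with the largest differences whose promoter window holds a cell cycle homology region are shown next. That element, TTTGAA or TTCGAA, and the CCAAT box are known from the promoters of genes expressed late in the cell cycle. Each window runs from 250 bases before to 50 bases after the RefSeq gene start (GRCm38.p6), 5′ to 3′ on the gene's strand, and capitals mark both elements on either strand. Ccnb2 is on the minus strand at chr9:70421505-70421804, Cenpa on the plus strand at chr5:30666636-30666935 and Bub1b on the plus strand at chr2:118597961-118598260.
Ccnb2: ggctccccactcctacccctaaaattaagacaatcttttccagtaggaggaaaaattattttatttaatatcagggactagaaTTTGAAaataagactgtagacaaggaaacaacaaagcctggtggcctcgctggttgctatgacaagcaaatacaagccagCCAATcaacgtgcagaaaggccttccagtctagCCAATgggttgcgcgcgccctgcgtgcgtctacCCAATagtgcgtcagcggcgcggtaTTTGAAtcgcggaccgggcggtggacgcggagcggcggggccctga
Cenpa: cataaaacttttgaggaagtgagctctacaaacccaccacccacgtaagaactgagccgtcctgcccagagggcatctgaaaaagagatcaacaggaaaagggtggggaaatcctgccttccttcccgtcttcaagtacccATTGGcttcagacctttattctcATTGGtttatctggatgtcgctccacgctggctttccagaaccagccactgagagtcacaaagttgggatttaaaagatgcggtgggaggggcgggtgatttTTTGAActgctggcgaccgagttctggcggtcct
Bub1b: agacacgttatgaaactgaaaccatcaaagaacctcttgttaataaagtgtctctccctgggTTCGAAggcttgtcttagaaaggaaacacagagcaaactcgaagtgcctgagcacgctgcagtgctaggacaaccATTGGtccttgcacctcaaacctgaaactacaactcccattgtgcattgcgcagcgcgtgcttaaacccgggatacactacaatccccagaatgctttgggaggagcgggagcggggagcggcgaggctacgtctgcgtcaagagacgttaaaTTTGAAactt

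The Ccnb2 window holds 3 CCAAT boxes, starting 87, 54 and 21 bases before the gene start, and 2 copies of TTTGAA, 1 starting 167 bases before the start and the other just after it. Cenpa, the centromeric histone H3 variant, holds 2 CCAAT boxes in reverse and a TTTGAA after the start. Bub1b, a kinase-like spindle checkpoint protein, holds 1 CCAAT box in reverse and both forms of the cell cycle element. RefSeq windows were matched to 8495 of the 10488 genes, 8055 by symbol and 440 by an older symbol. A cell cycle homology region was found in 22 of 29 mitosis promoters (75.9%) and in 13.5% of all matched promoters. For the CCAAT box the shares were again 22 of 29 and 39.7%. Over the genes that were higher at 24 h, 22.7% of 1031 promoters held the cell cycle element, against 12.5% of 6360 promoters of genes called neither way. Without the genes of the mitosis, replication and recombination lists it was 21.3% of 963. That step left 1164 of the 1249 higher genes and did not remove all cell division genes. Cdca3, Cdkn3 and Knstrn, of the 15 largest increases, are in none of the 3 lists. For the lower genes, 77.1% had a window, under the minimum of 80% set for such a count, so no share is given for them. These are letter matches in a fixed window and do not show that a factor binds.

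Genes of DNA replication were higher as well, but less uniformly. Of 46 measured, 33 passed 2-fold upward and 0 downward, and the median difference was 1.49. The largest was Tk1 (thymidine kinase, chr11:117815519-117839908, a locus shared with 1 gene), at 5.92, 2.64 and 64.6 at 0 h, 4 h and 24 h. The ligase gene Lig1 went from 3.02 to 26.8, the maintenance methylation factor Uhrf1 from 4.73 to 38.2, and the licensing inhibitor Gmnn from 1.52 to 13.5. Mcm5, a subunit of the replicative helicase, read 5.47, 5.25 and 34.5. A few S-phase genes were already high at 4 h. Pcna, the sliding clamp, stood at 55.9, 224 and 139, and the ribonucleotide reductase subunit Rrm2 at 7.28, 73.03 and 48.8, so both were lower at 24 h than at 4 h by less than 2-fold. Of 37 replication promoters, 12 held an E2F element (TTTGGCGC, TTTCGCGC, TTTCCCGC or TTTGCCGC on either strand), 32.4% against 4.45% of all matched promoters. In mitosis promoters it was found in 1 of 29. The E2F element was added to the search after the values were seen.

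Genes of recombination, checkpoints and chromosome condensation followed, with 17 of 18 at least 2-fold higher and a median of 1.78. The condensin subunits Ncapd2, Ncaph and Ncapg led with differences of 3.77, 3.21 and 2.87. Many of the 18 were at low levels, and 9 kept a 2-fold difference with a pseudocount of 5. Among 12 histone variant and HMG genes, 6 were higher and 2 lower, against 11.9% and 13.7% of all genes. The share lower was thus near that of all genes. Hmgb2 and Hmgb3, which bend DNA, had differences of 2.35 and 2.61. The architectural factors Hmga1 and Hmga2 went the other way, Hmga2 from 392.2 at 4 h to 51.8 at 24 h after 39.2 at 0 h.

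The G1 regulators were mixed, with 5 of 22 higher and 3 lower, against 11.9% and 13.7% of all genes. The share lower was thus near that of all genes. Only the D-type cyclins Ccnd1 and Ccnd2 and their kinase Cdk6 were at least 2-fold lower. Ccnd2 read 77.6, 106 and 28.2 and Cdk6 4.34, 12.9 and 2.16. On the higher side stood the CDK inhibitors Cdkn2b and Cdkn2d, the pocket proteins Rbl1 and Rbl2, and E2f1. Cdkn2d went from 4.50 to 19.7 and was the only one of those 5 that kept a 2-fold difference with a pseudocount of 5. E2f1 read 10.5, 3.65 and 11.4, and Rbl2 10.7, 2.44 and 7.67, so each was low at 4 h and back near its uninduced level at 24 h.

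**Figure D2:**
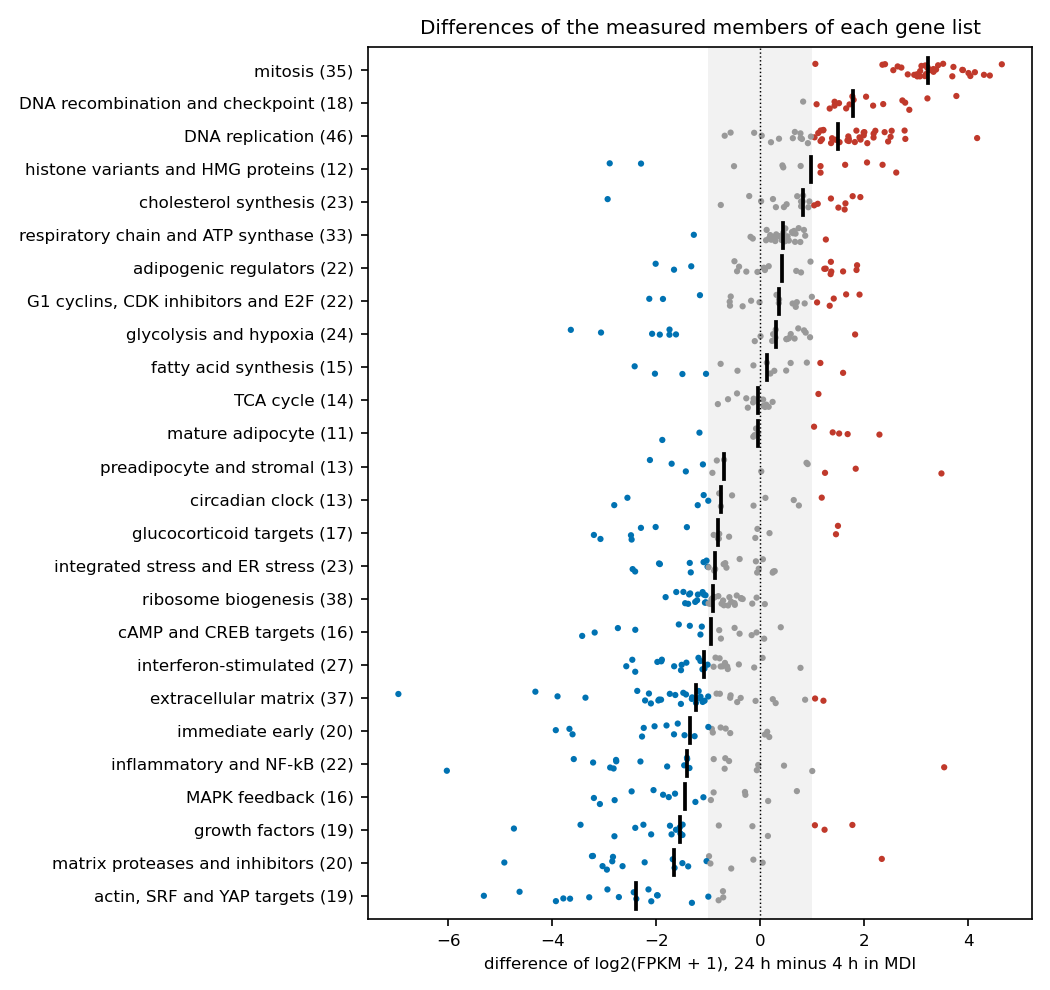
Differences of log2(FPKM + 1), 24 h minus 4 h in MDI, of the measured genes of each list with 11 or more of them; the number measured is in brackets. Red points are at least 2-fold higher, blue points at least 2-fold lower, black bars the list medians and the dotted line the median of all genes (−0.02). The mitosis list stands apart on the right with a median of 3.22, and actin, SRF and YAP targets lie farthest left at −2.39.

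Immediate early genes, which encode short-lived transcription factors made soon after a stimulus, were lower at 24 h. Of 20 measured, 12 were at least 2-fold lower and none higher, with a median difference of −1.36. The AP-1 subunit Fosl1 read 2.64 at 0 h, 240.0 at 4 h and 17.9 at 24 h, Ier3 8.52, 147 and 8.66, and Fos 2.32, 12.2 and 1.72. Of the times sampled, all 3 were highest at 4 h, and Ier3 and Fos were back at or below the 0 h level by 24 h. Myc, a driver of growth, went from 136 to 44.6 but remained above its 0 h level of 3.98. Feedback inhibitors of MAP kinase signalling showed a like picture, with 10 of 16 lower and a median of −1.45. Errfi1, an inhibitor of the EGF receptor, read 15.6, 442 and 47.2. The MAP kinase phosphatases Dusp4 and Dusp5 had differences of −2.80 and −3.09.

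Targets of cAMP signalling were lower for 8 of 16 measured genes and higher for none, with a median of −0.96. The orphan nuclear receptor Nr4a3 read 0.0430 at 0 h, 14.9 at 4 h and 0.479 at 24 h, Nr4a2 1.08, 18.7 and 1.16, and Nr4a1 10.3, 434 and 64.05. All 3 were lower at 24 h. Nr4a1 and Nr4a3 stayed above their uninduced levels, Nr4a3 at an FPKM below 1, and Nr4a2 was back near its own. Amphiregulin (Areg), an EGF receptor ligand, went from 4.98 to 0.127, and its difference of −2.41 shrank to −0.96 with a pseudocount of 5. The phosphodiesterases Pde4b and Pde4d, which degrade cAMP, were lower too, from 39.7 to 17.3 and from 45.9 to 14.8. Gem, a small GTPase, and Cited2, a transcriptional coregulator, did not share the 4 h peak. Gem read 66.7, 24.4 and 32.3.

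The cAMP response element, TGACGTCA, occurs in 3.44% of all matched promoters and in 1 of 13 promoters of this list, that of Areg. Its shorter form TGACG, which the full element contains, occurs in 34.0% of all promoters and in 8 of 13 here. It is not particular to lists that were lower. Of the lists that were higher, replication held it in 16 of 37 promoters (43.2%) and mitosis in 8 of 29 (27.6%). The shorter form was searched after the full element had been counted. The AP-1 element, TGACTCA, was searched as planned. It occurs in 3.25% of all matched promoters, in 2.91% of those of genes higher at 24 h and in 0 of 13 here. Windows of Areg (plus strand, chr5:91139349-91139648), Nr4a3 (plus strand, chr4:48045055-48045354) and Nr4a1 (plus strand, chr15:101266596-101266895) are shown as examples with the full and the shorter form, as RefSeq gives them for GRCm38.p6, with capitals for TGACG or its reverse complement CGTCA.
Areg: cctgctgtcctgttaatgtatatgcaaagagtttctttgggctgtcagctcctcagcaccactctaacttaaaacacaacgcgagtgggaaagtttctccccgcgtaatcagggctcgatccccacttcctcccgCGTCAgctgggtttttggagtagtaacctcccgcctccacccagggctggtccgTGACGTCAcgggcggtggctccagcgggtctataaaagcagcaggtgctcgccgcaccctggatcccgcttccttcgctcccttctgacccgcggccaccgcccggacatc
Nr4a3: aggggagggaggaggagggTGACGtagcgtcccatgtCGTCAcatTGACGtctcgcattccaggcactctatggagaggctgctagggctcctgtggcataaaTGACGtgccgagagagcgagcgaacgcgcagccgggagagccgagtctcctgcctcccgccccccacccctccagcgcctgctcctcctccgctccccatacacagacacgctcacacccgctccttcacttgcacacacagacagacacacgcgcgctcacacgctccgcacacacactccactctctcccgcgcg
Nr4a1: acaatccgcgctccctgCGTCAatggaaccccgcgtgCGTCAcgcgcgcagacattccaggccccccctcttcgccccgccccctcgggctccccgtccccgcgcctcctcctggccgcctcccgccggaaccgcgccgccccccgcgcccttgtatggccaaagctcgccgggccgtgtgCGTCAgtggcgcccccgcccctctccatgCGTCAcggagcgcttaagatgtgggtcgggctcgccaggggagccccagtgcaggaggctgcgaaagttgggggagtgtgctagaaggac
The full element in Areg starts 61 bases before the gene start. Nr4a3 and Nr4a1 each hold 4 copies of the shorter form. The locus that the authors give for Nr4a3 starts at chr4:48051248, beyond the end of its window. Those of Areg and Nr4a1 start within their windows.

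Targets of the glucocorticoid receptor split by gene. Of 17 measured, 7 were at least 2-fold lower, 2 higher and 8 neither, with a median of −0.82. The share higher was near the 11.9% of all genes, and 13.7% of all genes were lower. Metallothionein 2 (Mt2), a zinc-binding protein, was among the most abundant transcripts at 4 h and read 186, 7475 and 886. The kinase Sgk1 went from 89.97 to 15.2, below its 0 h level of 44.6. By contrast Fkbp5, a co-chaperone of the receptor, stood at 44.2, 389.9 and 224, and Tsc22d3, an anti-inflammatory factor, at 26.7, 228 and 149.97, both still at least 5 times the uninduced level at 24 h. Zbtb16, a transcription factor, was level at 11.3 and 12.9. Angptl4 and Pdk4, which restrain lipoprotein lipase and pyruvate oxidation, were the 2 that were higher, and both had been lower at 4 h than in uninduced cells. Pdk4 read 26.3, 9.08 and 26.6.

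Cytoskeletal genes had the lowest median of the 32 lists. Of 19 measured actin, SRF and YAP targets, 16 were at least 2-fold lower and none higher, with a median of −2.39. SRF and YAP are transcription regulators that respond to actin assembly and to cell tension. Smooth muscle actin (Acta2, chr19:34240336-34255373) read 82.9 at 0 h, 345 at 4 h and 7.67 at 24 h. The matricellular YAP targets Cyr61 and Ctgf read 10.3, 423 and 16.1, and 0.219, 16.5 and 0.263. Ctgf ended near where it began and Cyr61 somewhat above, whereas Acta2 ended far below. Structural genes of the actin network were lower at higher levels of expression, vinculin (Vcl) from 275 to 27.2, filamin A (Flna) from 449 to 113 and tropomyosin 1 (Tpm1) from 381 to 56.9. Tnnt2, a troponin of cardiac muscle and the only muscle marker measured, stood at 4.04 and 0.627.

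Extracellular matrix genes, which make up the scaffold around fibroblasts, were lower for 25 of 37 and higher for 2, with a median of −1.24. Their summed FPKM was 21380.5 at 4 h and 12100.6 at 24 h. The fibrillar collagen gene Col1a1 read 1996, 1642 and 425, and periostin (Postn) 1061, 1225 and 277. The basement membrane collagen Col4a1 read 457, 1917 and 858. Col1a1 and Postn ended below the uninduced level, and Col4a1 above it. Tenascin C (Tnc) went from 85.04 to 3.28 and Thbs2 from 123 to 7.30. The genes that were higher were Col6a2, at 795 and 1650.4, and Ecm1, at 131 and 305. Col6a1 lay just short of 2-fold at 0.86, while Col6a3, the other chain of collagen VI on the list, was lower at −1.91. Fibronectin (Fn1) stood at 946 and 887.

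Matrix proteases and their inhibitors were lower for 14 of 20 and higher for 1, with a median of −1.67. Both sides of the system were included. Mmp13 and Mmp9, a collagenase and a gelatinase, went from 9.15 to 0.0887 and from 14.7 to 0.916, and the inhibitors Timp1 and Timp3 from 941 to 149 and from 86.1 to 8.22. The receptor Plaur and the activators Plau and Plat of the plasminogen system had differences of −2.95, −2.85 and −2.84. Adamts5, an aggrecan-cleaving protease, was the exception, at 17.2 at 0 h, 0.834 at 4 h and 8.26 at 24 h.

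Secreted growth factors were lower for 13 of 19 and higher for 3, with a median of −1.55. The share higher was near the 11.9% of all genes, and 13.7% of all genes were lower. The fibroblast growth factor Fgf2 read 8.25, 33.9 and 0.305. The EGF receptor ligands Ereg and Hbegf went from 38.9 to 2.63 and from 8.33 to 0.332, and with Areg all 3 measured ligands of that receptor on the list were lower. Fgf10, Hgf and Vegfc were higher, at 1.77, 1.05 and 1.24, of which Fgf10 alone kept a 2-fold difference with a pseudocount of 5.

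Inflammatory genes were lower for 13 of 22, with a median of −1.41. The chemokine Ccl2 went from 20.3 to 0.768, the cytokine Il11 from 21.3 to 1.39 and the adhesion molecule Vcam1 from 161 to 21.8. Lcn2 (lipocalin 2, chr2:32384637-32387739), an iron-binding acute-phase protein, was the only one at least 2-fold higher and read 0.0408, 17.9 and 219. It was high at both times after induction and nearly absent before. Interferon-stimulated genes had no 4 h peak. Of 27 measured, 15 were lower and none higher, with a median of −1.08 and median levels of 17.3, 5.04 and 1.48 at 0 h, 4 h and 24 h. The tetherin gene Bst2 stood at 228, 220.4 and 36.04, and the interferon regulatory factor Irf7 at 14.3, 8.15 and 0.659. Most of the list was at low levels, and 4 genes kept a 2-fold decrease with a pseudocount of 5 and 7 with an FPKM minimum of 5. Ifitm3, a restriction factor of endosomes, was abundant and differed the other way by less than 2-fold, at 816 and 1395.

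**Figure D3:**
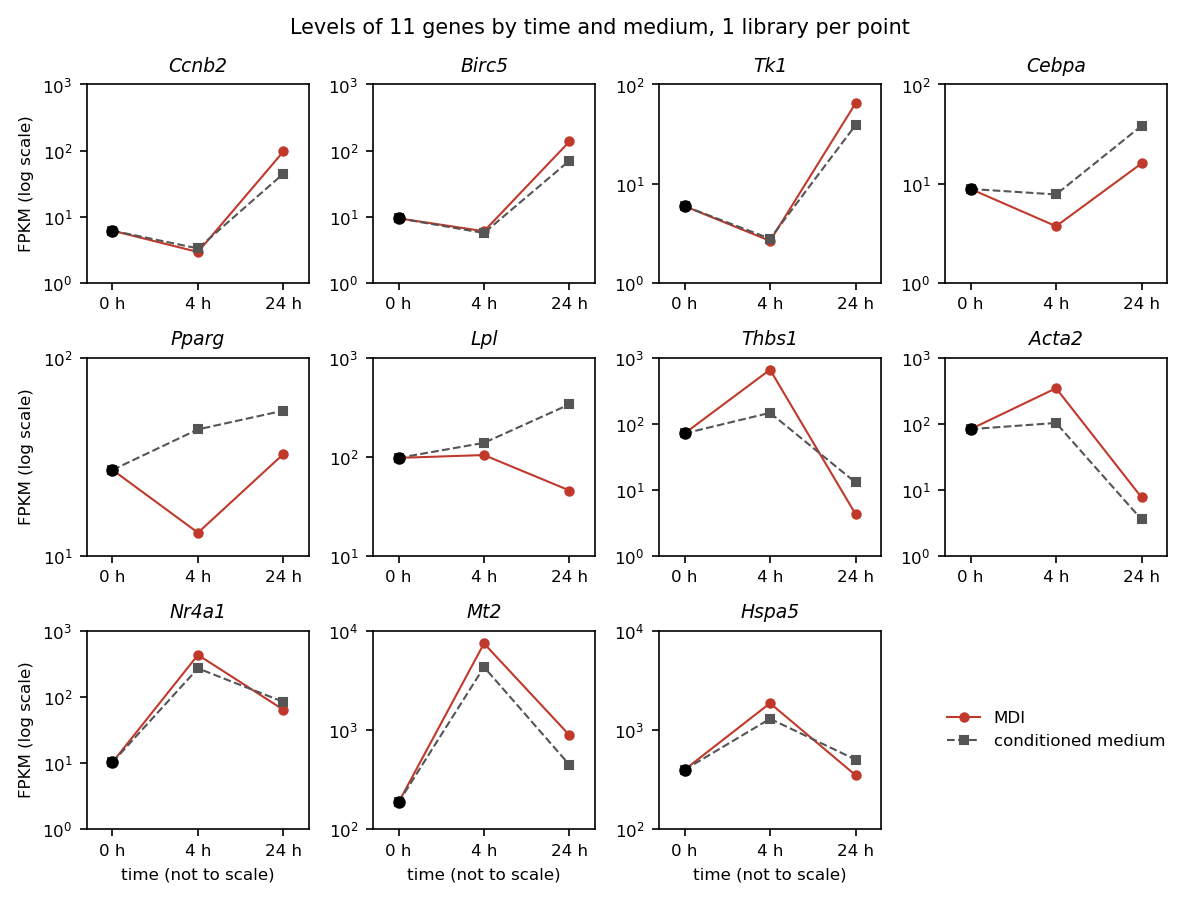
FPKM (log scale) of 11 genes at 0 h, 4 h and 24 h in MDI (red circles) and in conditioned medium (grey squares), 1 library per point; the 0 h point (black) is shared and the time axis is not to scale. Ccnb2, Birc5 and Tk1 are highest at 24 h, Thbs1, Acta2, Nr4a1, Mt2 and Hspa5 are highest at 4 h, and Lpl separates the media at 24 h (45.7 in MDI and 339 in conditioned medium).

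Regulators of fat cell formation were higher for 8 of 22 and lower for 3, with a median of 0.43. The share lower was near the 13.7% of all genes, and 11.9% of all genes were higher. Cebpa (chr7:35119293-35121931) read 8.82 at 0 h, 3.71 at 4 h and 15.98 at 24 h, and Pparg (chr6:115361221-115490401) 27.2, 13.1 and 32.7. Both were lowest at 4 h and a little above the uninduced level at 24 h. Rxra, the partner receptor of PPARγ, read 37.8, 25.2 and 94.1, and Srebf1, a regulator of lipid synthesis, 10.3, 6.36 and 21.2. The early factors differed from these. Cebpb stood at 124, 695 and 523 and Cebpd at 6.23, 30.8 and 29.5, high at both times after induction. Klf4 and Klf9, Krüppel-like factors, and the receptor Ppard were at least 2-fold lower, Klf9 from 66.5 to 15.7. With a pseudocount of 5 the count of higher genes was 5.

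Genes of the mature fat cell were mostly at low levels, with 11 of 24 measured, 5 of them higher and 2 lower, and a median of −0.04. The share lower was near the 13.7% of all genes, and 11.9% of all genes were higher. Hormone-sensitive lipase (Lipe) read 7.81, 3.62 and 21.6 and the triglyceride lipase Pnpla2 7.24, 5.32 and 15.6. The locus of Lipe is shared with 4 other genes. Resistin (Retn) and the droplet protein Cidec appeared at 24 h only at low levels, 2.43 and 1.09, after 0.0703 and 0.0188. Lipoprotein lipase (Lpl) was lower, at 97.5, 104 and 45.7, as was the triglyceride-forming enzyme Dgat2, at 12.05 and 2.53. Fabp4 and Fabp5 differed by −0.14 and −0.04. With a pseudocount of 5, Lipe alone remained at least 2-fold higher, and with an FPKM minimum of 5 the count was 3.

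Cholesterol synthesis genes were higher for 8 of 23 and lower for 1, with a median of 0.81. Fdft1 (squalene synthase) read 12.3, 3.69 and 16.8 and Fdps, which makes farnesyl diphosphate, 29.96, 13.9 and 50.01, both with their minimum at 4 h. Phosphomevalonate kinase (Pmvk) stood against them at 11.8, 298 and 37.97. In fatty acid synthesis 2 of 15 genes were higher and 4 lower, with a median of 0.13 that was −0.13 with an FPKM minimum of 5. The share higher was near the 11.9% of all genes, and 13.7% of all genes were lower. The lower genes had peaked at 4 h, stearoyl-CoA desaturase 1 (Scd1) at 19.05, 504 and 123 and fatty acid synthase (Fasn) at 27.6, 102 and 48.7, with Acly and the elongase Elovl5 alongside. Their regulator Srebf1 and the acetate-using enzyme Acss2 were the higher ones, the latter not with a pseudocount of 5.

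Of 24 genes of glycolysis and hypoxia, 7 were lower, 1 higher, and the median was 0.29. Hexokinase 2 (Hk2) read 4.49, 109.6 and 12.2, the glucose transporter gene Slc2a1 48.8, 195 and 50.2, and the angiogenic factor Vegfa 23.2, 139.8 and 44.7. These and Adm, Pfkfb3, Pfkfb4 and Ndrg1 were the lower genes. Pyruvate kinase (Pkm) read 363, 979 and 1900 and triosephosphate isomerase (Tpi1) 239.8, 552 and 989, stepwise higher though short of 2-fold between 4 h and 24 h. Phosphofructokinase of muscle type (Pfkm) was the 1 gene at least 2-fold higher, at 8.43 and 32.4. The median of the respiratory chain and ATP synthase list was 0.44. Of its 33 genes 1 was at least 2-fold higher and 1 lower, shares below those of all genes, and the lower one was cytochrome c (Cycs, −1.28). TCA cycle genes stayed close to 0, with a median of −0.04 and 1 of 14 higher (Idh3g).

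Ribosome biogenesis genes, which build ribosomes in the nucleolus, were lower for 15 of 38 and higher for none, with a median of −0.92. Their median level was 14.1, 46.4 and 27.02 at 0 h, 4 h and 24 h, so at 24 h it still stood above that of uninduced cells. Rrp12 read 4.14, 44.97 and 11.99, and Nolc1, a nucleolar phosphoprotein, 20.5, 177 and 62.6. Genes of the integrated stress response, which includes amino acid supply, and of endoplasmic reticulum stress were lower for 9 of 23, with a median of −0.87. The chaperone Hspa5 (BiP) read 397, 1865 and 350.3, and the amino acid transporter Slc7a5 17.8, 77.3 and 13.3. Ddit3, a factor of prolonged stress, had no 4 h peak, at 62.5, 20.6 and 19.3.

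Among circadian clock genes 5 of 13 were lower and 1 higher, with a median of −0.76. The repressors Cry1 and Per2 read 5.01, 29.2 and 3.30, and 1.53, 23.8 and 3.21. Dbp, a transcription factor of the clock's output, read 13.4, 0.524 and 2.46. With a pseudocount of 5, 2 genes were lower and none higher. In the preadipocyte and stromal list, 3 of 13 genes were higher and 4 lower, against 11.9% and 13.7% of all genes. The stem cell antigen Ly6a, from a family of similar genes, read 26.001, 32.3 and 371. The platelet-derived growth factor receptor Pdgfrb read 76.5, 18.3 and 4.93, and its relative Pdgfra 191, 36.6 and 69.6. Pdgfrb was lower at each later time, while Pdgfra was lowest at 4 h.

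The interval from 4 h to 24 h was also sampled in conditioned medium, by a separate pair of libraries. That pair is no replicate, since the medium differs, and no difference between the media was tested. Of 10338 genes measured in both pairs, 631 were at least 2-fold higher at 24 h in conditioned medium (6.1%) and 745 lower (7.21%), against 1229 (11.9%) and 1399 (13.5%) in MDI. The genes higher in both numbered 513, which is 41.7% of the MDI list and 81.3% of the conditioned medium list. For lower genes it was 582, or 41.6% and 78.1%. Across the 10338 genes the 2 sets of differences had a Pearson r of 0.84 and a Spearman rho of 0.83, a description only, because genes are not independent replicates. Of the genes called higher in conditioned medium, 68.0% had a larger difference in MDI, and of those called lower, 54.8%.

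All 35 mitosis genes were at least 2-fold higher in conditioned medium too, with a median of 2.55 against 3.22 in MDI. Ccnb2 read 3.29 and 44.8 there at 4 h and 24 h, and Birc5 5.65 and 70.4, so the 4 h levels were close to those in MDI and the 24 h levels were lower. In the order conditioned medium and MDI, and over the genes measured in both pairs, the actin, SRF and YAP list had medians of −0.83 and −2.27, and the MAPK feedback list −0.37 and −1.45. Over all 19 actin, SRF and YAP genes measured in MDI, the median level at 4 h was 219 in MDI and 51.2 in conditioned medium. At 24 h it was 13.5 and 14.1, so the media stood apart at the earlier time. Thbs1 read 147 and 12.9 in conditioned medium against 659.4 and 4.29 in MDI, and Ctgf 0.118 and 0.152 against 16.5 and 0.263. Ctgf thus had no 4 h peak in conditioned medium. Interferon-stimulated genes had nearly the same medians in both, −0.97 and −1.15, as did matrix proteases, −1.44 and −1.67.

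The median difference of mature fat cell genes was 1.29 in conditioned medium and −0.04 in MDI, with 7 of 11 and 5 of 11 at least 2-fold higher. Lpl (chr8:68880555-68906932) read 138 and 339 in conditioned medium, and Fabp4 35.3 and 108. Glycolysis and hypoxia genes had medians of unlike sign, −0.68 and 0.29. Tpi1 read 553 and 423 in conditioned medium, lower at 24 h where MDI was higher. Of all genes, 10 passed 2-fold in opposite directions, 6 of them at an FPKM of 5 or more in each pair. Beside Lpl these were Gchfr, which regulates tetrahydrobiopterin synthesis, the neuropeptide receptor Adcyap1r1, the lectin Cd33, the RNA-binding protein gene Larp1b, and Prelid2. Only Prelid2 was higher in MDI and lower in conditioned medium. With a pseudocount of 5 the MDI differences of Gchfr, Cd33, Larp1b and Prelid2 fell short of 2-fold. Among genes at an FPKM of 5 or more in each pair, the widest gaps with MDI the lower were those of Thbs1 (−3.56), Adcyap1r1 (−3.53), Tnc (−3.32), Gchfr (−3.11), Fgl2 (−3.07) and Tgfb3 (−2.98). With MDI the higher they were those of Wfdc12 (2.77), Ramp3 (2.55), Slpi (2.31), Prelid2 (2.15), Trerf1 (2.13) and Atoh8 (2.10).

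**Figure D4:**
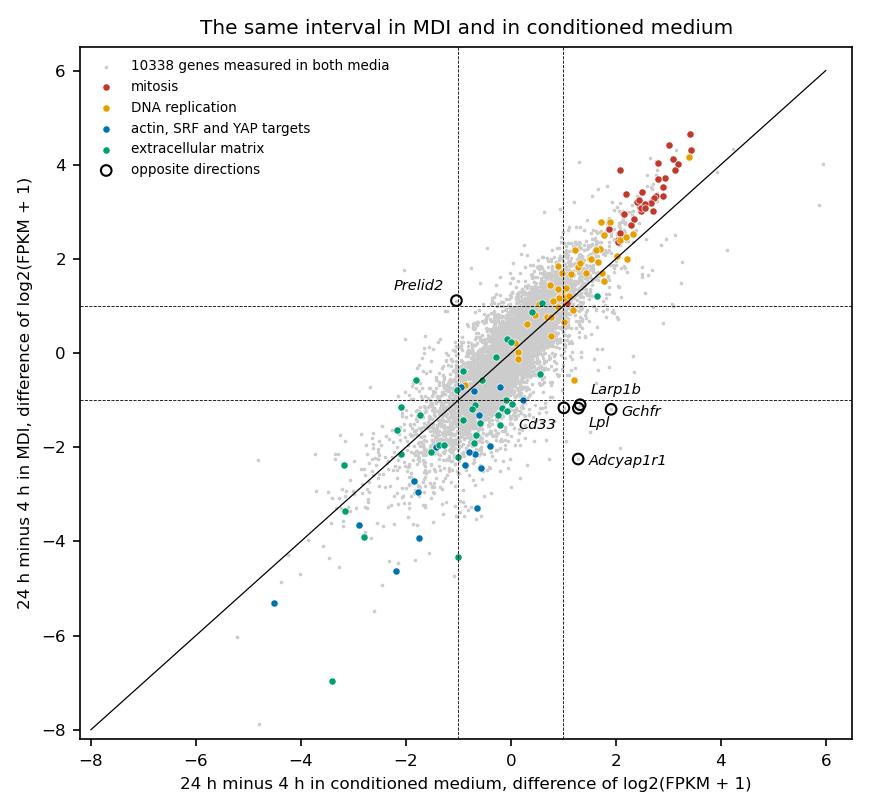
Difference of log2(FPKM + 1), 24 h minus 4 h, in MDI (vertical) against conditioned medium (horizontal) for the 10338 genes measured in both pairs, 1 library per condition. The solid line is equality and dashed lines mark 2-fold; open circles are the 6 genes past 2-fold in opposite directions at an FPKM of 5 or more. Mitosis genes lie mostly above the line of equality, with medians of 3.22 in MDI and 2.55 in conditioned medium.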

How the data were processed

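RNA of 7 3T3-L1 cultures, 1 library per condition, was extracted with Trizol and made into Illumina libraries, per the labels. TopHat2 2.0.13 and Cuffdiff 2.2.0 are named in the submitters' processing notes. Neither genome build nor annotation is named in these sources. The deposited values are FPKM per gene, normalized by the authors, per the file headers. The fold changes and p-values of the authors' deposited tables were not used. Loci are printed as the authors give them, with 1 added to each start, and overlap GENCODE M21 (GRCm38) for 22394 of 22622 shared symbols. The levels of each library agreed between the tables that list it.

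From these values, differences of log2(FPKM + 1) were computed in Python 3.11.15 with pandas 2.3.3 for genes typed protein-coding in the tables with an FPKM of at least 1 in either library. A difference of at least 1 was called. With 1 library a side there is no test. Genes were put into 32 lists of 678 genes, of which 676 are in the tables. The members and lists were chosen with earlier results of these data known. Named genes are the 15 highest and 15 lowest at an FPKM of at least 5, up to 4 of each list in the direction of its median with up to 2 past 2-fold the other way, 12 fixed genes, and genes that differ most between media. Other genes named for contrast were chosen after their values were seen. Of the 10488 genes, 2161 are given the same locus as another listed gene, which need not mean that the genes themselves overlap. Promoters are RefSeq windows (GRCm38.p6). Read totals are unknown, but the commonest ratio of the lowest FPKM values between the 24 h and 4 h libraries, 1.04, puts the worth of 1 read at much the same FPKM in both. A few genes are not reported here.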

Additional observations from a re-analysis of the deposited data

Results flagged for a closer look

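For 6 genes the 4 h to 24 h difference ran past 2-fold in opposite directions in the 2 media, with 1 library per condition. The difference between the media was not tested. In MDI minus conditioned medium terms on the log2(FPKM + 1) scale, the gap was −3.53 for Adcyap1r1, the receptor for the neuropeptide PACAP, which signals through cAMP. Adcyap1r1 read 6.62 and 0.601 at 4 h and 24 h in MDI, and 2.401 and 7.27 in conditioned medium. For Gchfr the gap was −3.11, with 27.4 and 11.4 in MDI and 30.5 and 117 in conditioned medium. Lpl had a gap of −2.46, with the levels given above and a locus on chromosome 8. Larp1b had a gap of −2.42, from 7.30 to 2.88 in MDI and from 3.18 to 9.44 in conditioned medium. The gap of Cd33 was −2.18, from 6.17 to 2.196 and from 8.08 to 17.3. Prelid2 alone had a gap above 0, 2.15, from 6.71 to 15.7 in MDI and from 12.3 to 5.47 in conditioned medium.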

How the results depend on the processing

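No paired analysis was possible because each condition has 1 library, and for the same reason no library could be left out. None of the 195 named genes changed sign under the 4 settings run for them (pseudocounts of 0.1 and 5, TPM and a median ratio of 1). Some genes given above, such as Cdk1, Pcna and Fasn, are not among the 195 and were not run singly. Over 7 settings, 3 list medians near 0 changed sign. Fatty acid synthesis was −0.13 with an FPKM minimum of 5, TCA cycle 0.0086 with TPM, and mature fat cell genes 0.012 with no low-value filter and 0.0040 with TPM. With TPM the higher genes (1471) outnumbered the lower (1431). The pseudocount mattered most. With a pseudocount of 5, 592 genes were higher and 875 lower in MDI, 1467 of the 2681 calls remained and none was called the opposite way. Under it the genes called the same way in both media numbered 206 higher and 333 lower, and 22 of 195 named genes lost their call. List medians that crossed 2-fold were MAPK feedback (−0.90) and interferon-stimulated (−0.43) with a pseudocount of 5, inflammatory (−0.88) and interferon-stimulated (−0.78) with no low-value filter, interferon-stimulated (−0.99) and cAMP (−1.13) with an FPKM minimum of 5, and histone variants and HMG (1.01) with TPM. The TPM scale also took Pkm to 1.00 and glycolysis and hypoxia to 2 higher genes. Of all calls, 46.6% were higher, and 40.4% to 50.7% over the alternatives.

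Alternatives chosen after seeing the data were adding genes that GENCODE M21 calls protein-coding (1269 higher, 1449 lower) and keeping only loci shared with no other gene (988 higher, 1165 lower). The missing replicates and the unknown depth limit every value, most of all for genes under an FPKM of 5.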

Other observations

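Several genes that supply sugar nucleotides for hyaluronan and other glycans had a peak at 4 h. They are in none of the lists and were chosen after their values were seen. Ugdh (chr5:65413222-65435842), which oxidises UDP-glucose to UDP-glucuronate, read 75.8 at 0 h, 3809.7 at 4 h and 194 at 24 h in MDI, and 2324 and 121 in conditioned medium. Uap1, which makes UDP-N-acetylglucosamine, read 17.3, 987 and 102 in MDI and 407 and 79.8 in conditioned medium. The entry enzymes of the hexosamine pathway, Gfpt1 and Gfpt2, had differences of −2.06 and −2.76 in MDI and −1.41 and −1.89 in conditioned medium. Pgm3 and Gnpnat1, the enzymes between, had smaller ones of −1.46 and −1.22, the latter short of 2-fold with a pseudocount of 5. All 6 were highest at 4 h in both media. The synthase Has2 did not follow them, at 10.9, 19.6 and 29.5 in MDI, nor did Ugp2, which makes UDP-glucose, at 27.3, 30.96 and 22.99. The hyaluronan receptor Cd44 read 16.2, 118 and 26.2.

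A few metabolic and signalling genes, also chosen after their values were seen, stood out among the higher and lower genes. Pcx (pyruvate carboxylase) read 26.6, 33.97 and 182 and the NADPH-forming dehydrogenase Idh1 90.03, 12.9 and 77.9, the latter with a sharp minimum at 4 h. The phosphate transporter Slc20a1 and the lactate transporter Slc16a1 peaked at 4 h, at 82.2 and 135, and stood at 5.70 and 10.01 at 24 h. The vitamin D receptor gene Vdr read 6.95, 387 and 49.9 in MDI and 362 and 26.8 in conditioned medium, a peak of nearly the same height in both media. Krt13, a keratin of stratified epithelia, was nearly absent at 0 h (0.173) and read 50.9 and 63.4 in MDI, while Epcam, Cdh1 and Krt18 were listed at 0 in both MDI libraries.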
